A study of Mus musculus with 13 samples.

Results

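The 39 genes described here are the nuclear genes of the ubiquitous subunits of respiratory complexes II, III, IV and V, together with Cycs, the somatic cytochrome c. They were taken from a list of subunit names and matched to the gene identifiers of the count table, which holds 34419 genes. Of the 39 genes, 4 belong to complex II, 9 to complex III, 10 to complex IV and 15 to complex V, and Cycs is counted apart. Subunit isoforms of muscle, brown fat and testis are not among them, and neither are the subunits encoded by mitochondrial DNA. RNA-seq was carried out on gluteal white adipose tissue (WAT), a subcutaneous depot of the hind part of the body, from 7 mice kept at 22°C and 6 mice kept at 29°C, a temperature near thermoneutrality for mice. The animals were male C57BL/6J mice of 13 weeks, bred and kept at their temperature from birth. In both groups the hair of the hind part was removed after weaning, and each mouse lived alone with little bedding and no nesting material, so the controls at 29°C also lacked posterior hair. The comparison asks whether transcripts of the respiratory chain differ in white fat of mice raised in a cool environment.

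Complex II oxidizes succinate and passes its electrons to ubiquinone, complex III passes electrons from reduced ubiquinone to cytochrome c, and complex IV passes them from cytochrome c to oxygen. Complexes III and IV pump protons across the inner mitochondrial membrane, and complex V, the ATP synthase, lets protons flow back through a rotating ring to make ATP from ADP. White adipocytes hold fewer mitochondria than brown adipocytes or muscle fibers, so RNA of either of those cell types can add much to the transcripts of the respiratory chain measured in a white depot.

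Library totals were between 22356637 and 25245785 counts, and the 39 genes took from 0.716% to 0.942% of the counts at 22°C (median 0.851%) and from 0.620% to 0.880% at 29°C (median 0.727%). The lowest count of any of the 39 genes in any library was 435, so counting error was small beside the spread between mice. The 12 mature adipocyte markers summed to between 39752 and 61852 CPM (counts scaled by the normalised library size) at 22°C and between 46808 and 59946 CPM at 29°C, so adipocyte transcripts were abundant in every library, and none of them passed the test between temperatures. Skeletal muscle transcripts were present in both groups and varied widely. The 32 muscle markers summed to between 1081 and 107573 CPM at 22°C and between 190 and 8705 CPM at 29°C, and the mean log2 CPM of these markers (the muscle score) was highest in 22°C replicate 1 (10.38) and 22°C replicate 7 (9.89). All 32 markers were higher at 22°C in the fit (median log2 fold change 3.25), and none passed P-adj below 0.1. For this reason the results for the 39 genes are also given without 22°C replicates 1 and 7, a choice made after the data were seen. For lists of other respiratory genes and of brown and beige markers, values with the muscle score as a covariate are given instead. In whole tissue, a different number of cells of a type and a different amount of RNA per cell cannot be told apart. Of the other marker lists, 10 tested lymphocyte genes held 1 called gene (Cd3e, higher at 22°C, at most 2.03 CPM), and macrophage, blood, epithelium and endothelium markers held none. Blood markers summed to between 287 and 757 CPM at 22°C and between 320 and 3375 CPM at 29°C, and epithelium markers to at most 80.1 CPM and 332 CPM. The 5 libraries with the lowest totals, at most 22857079 counts, were all from 22°C (replicates 1 to 5), so library total is partly confounded with temperature.

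Mean levels of the subunit transcripts were modestly higher at 22°C, and few of the differences passed a test. The log2 fold change (22°C minus 29°C, in edgeR) was above 0 for all 39 genes, with a median of 0.25 and a range from 0.05 to 0.89, whereas 51.6% of the 17779 genes tested were above 0 and the median of those genes was 0.01. Of the 39 genes, 1 passed the threshold used here, a P-adj below 0.1 after Benjamini-Hochberg adjustment over all genes tested. This gene was Atp5g2, and it makes up 2.56% of the list, beside 0.731% of all tested genes that were called higher at 22°C. At an unadjusted p below 0.05, 14 of the 39 genes (35.9%) were higher at 22°C, beside 10.3% of tested genes. No gene of the list had groups without overlap (every 22°C mouse above every 29°C mouse), which was the case for 0.495% of tested genes. DESeq2 called 6 of the 39 genes higher (15.4%; Uqcr10, Cox5a, Cox6c, Atp5g1, Atp5g2 and Atp5l), beside 2.66% of the 34358 genes it tested. Those 34358 genes include many of low count that the edgeR filter left out, which lowers that share, while all 39 genes passed the filter. The 39 genes are not independent measurements. After the group means were removed, 79.4% of their variance lay on 1 principal component, beside 39.9% for all tested genes, so a mouse that was high for one subunit was generally high for the rest.

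The same few mice set the extremes of every complex. Averaged over its subunits, complex II had a mean log2 CPM of 7.65 ± 0.25 (SD, n = 7) in the 22°C mice and 7.46 ± 0.20 (SD, n = 6) in the 29°C mice. Complex III had 7.12 ± 0.27 and 6.82 ± 0.27, complex IV 7.34 ± 0.19 and 7.07 ± 0.24, and complex V 7.32 ± 0.28 and 7.05 ± 0.23. In each complex the difference of the means was near the SD of a group, and the groups overlapped. The highest of the 13 mice was 22°C replicate 1 in all 4 complexes, and the lowest was 29°C replicate 4. Gene by gene, 22°C replicate 1 was the highest 22°C mouse for 32 of the 39 genes, 29°C replicate 6 the highest 29°C mouse for 30, and 29°C replicate 4 the lowest 29°C mouse for 33. The median log2 fold change of the 39 genes was 0.15 without 22°C replicate 1. Without 22°C replicates 1 and 7 it was 0.10, with 36 of the 39 genes above 0 and none called by edgeR.

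**Figure D1:**
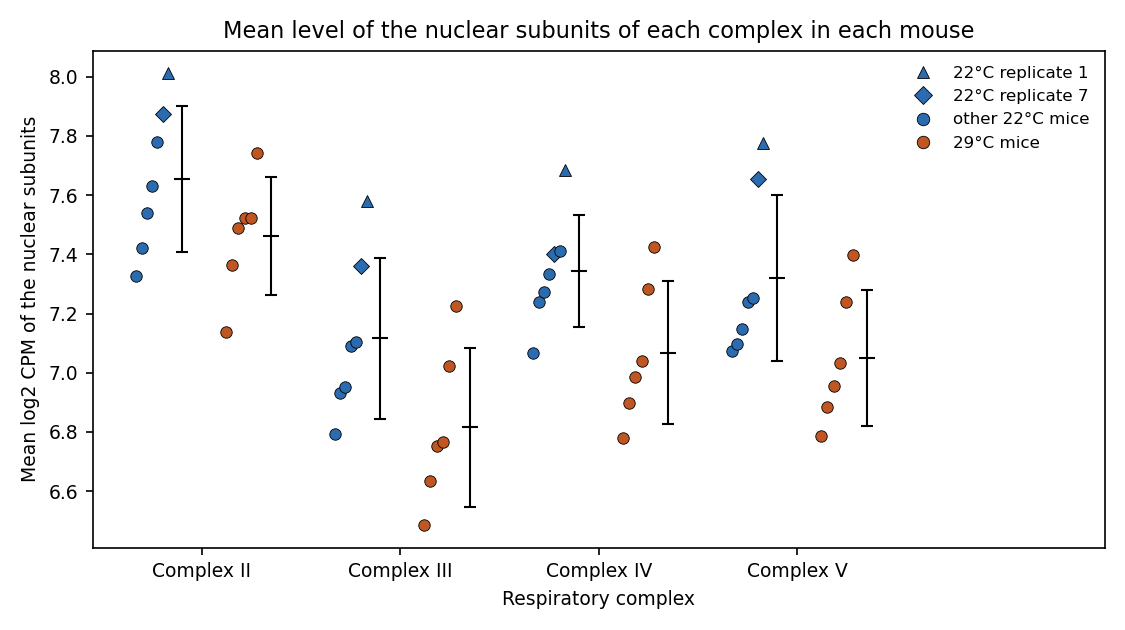
Mean log2 CPM of the nuclear subunits of complexes II, III, IV and V (vertical axis) in each of 7 mice at 22°C (blue) and 6 mice at 29°C (orange), with the mean ± SD of the group as a black bar beside the points. The triangle, 22°C replicate 1, is the highest mouse in every complex, and the groups overlap in all 4.

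Complex II is the succinate dehydrogenase of the citric acid cycle and has no subunit encoded by mitochondrial DNA. All 4 of its genes had log2 fold changes above 0, with a median of 0.22, and none had an unadjusted p below 0.05. Sdha, the flavoprotein that binds succinate, ran from 394 to 600 CPM (median 470) at 22°C and from 379 to 524 CPM (median 478) at 29°C. The median was thus lower at 22°C, and only 22°C replicates 1, 3 and 7 lay above all 29°C mice. The fitted difference was 0.10 ± 0.12 (SE; P-adj = 0.700), the lowest of the complex, and -0.01 without 22°C replicates 1 and 7. Sdhb, the iron-sulfur subunit whose protein is a common marker of complex II, ran from 130 to 242 CPM (median 154.0) at 22°C and from 114 to 167 CPM (median 153.8) at 29°C. The group medians were nearly equal, and the same 3 mice stood above the 29°C range. The difference in Sdhb was 0.23 ± 0.15 (SE; P-adj = 0.431) on the log2 scale, and 0.05 without 22°C replicates 1 and 7.

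The membrane anchors of complex II, Sdhc and Sdhd, hold the ubiquinone site with the iron-sulfur subunit. Sdhd ran from 94.2 to 146 CPM (median 120) at 22°C and from 77.3 to 126 CPM (median 97.2) at 29°C. It had the smallest p of the complex (log2 fold change 0.25 ± 0.12 SE, P-adj = 0.303), with 5 of 7 mice at 22°C above the 29°C median. The log2 fold change of Sdhc was 0.22 ± 0.12 (SE; P-adj = 0.330). Without 22°C replicates 1 and 7 the anchors had differences of 0.12 (Sdhc) and 0.13 (Sdhd), and the median of the complex was 0.08. It was 0.15 without 22°C replicate 1 alone.

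In complex III the median log2 fold change was 0.35, the highest of the 4 complexes, and 5 of its 9 genes had an unadjusted p below 0.05. These were Uqcrc1, a core protein, Uqcrfs1, the Rieske iron-sulfur protein, Cyc1, which carries the heme that reduces cytochrome c, and the small subunits Uqcrq and Uqcr10. Their log2 fold changes lay between 0.35 and 0.49, and in each of them every mouse at 22°C was above the median of the 29°C mice. None reached P-adj below 0.1 in edgeR. Uqcr10, a small subunit beside cytochrome c1, ran from 80.2 to 141 CPM (median 96.9) at 22°C and from 60.0 to 97.6 CPM (median 69.7) at 29°C. The highest 29°C mouse, replicate 6, lay within the 22°C range, and the other 29°C mice were all below it. The difference was 0.49 ± 0.14 (SE; P-adj = 0.129) and passed the threshold when 29°C replicate 6 was left out (P-adj = 0.0968), and without 22°C replicates 1 and 7 it was 0.32.

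Uqcrc2, the second core protein, ran from 168 to 312 CPM (median 189) at 22°C and from 128 to 218 CPM (median 177) at 29°C. The 22°C mice above all 29°C mice were again replicates 1, 3 and 7, and the log2 fold change was 0.26 ± 0.16 (SE; P-adj = 0.406). It was 0.14 without 22°C replicate 1 and 0.07 without 22°C replicates 1 and 7. At the other end of the complex, Uqcr11 ran from 76.2 to 123 CPM (median 92.8) at 22°C and from 76.3 to 129 CPM (median 87.3) at 29°C. The ranges were nearly the same, and the log2 fold change was 0.07 ± 0.14 (SE; P-adj = 0.815). Uqcrh, the hinge protein that touches cytochrome c, and Uqcrb had 0.12 and 0.28. Without 22°C replicates 1 and 7 the median of complex III was 0.11, with 8 of 9 genes above 0 and Uqcr11 at -0.01. With the muscle score as a covariate it was 0.23.

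Cytochrome c, which shuttles electrons in the intermembrane space between complexes III and IV, had the lowest level per length of all 39 transcripts, at 16.8 CPM per kb at 22°C and 13.0 CPM per kb at 29°C. This rank depends on the transcript length used for Cycs, 3123 bases. By mean CPM, Cycs (52.3 at 22°C and 40.6 at 29°C) was above Atp5k (24.9 and 21.6). Cycs ran from 34.7 to 86.2 CPM (median 45.2) at 22°C and from 27.5 to 54.9 CPM (median 36.4) at 29°C. Only 22°C replicates 1 and 7 lay above the 29°C mice. The log2 fold change was 0.37 ± 0.22 (SE; P-adj = 0.405), and 0.07 without those 2 mice.

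Complex IV, the cytochrome c oxidase, showed a median difference of 0.25 on the log2 scale, and 6 of its 10 genes had an unadjusted p below 0.05. These were Cox4i1, Cox5a, Cox5b, Cox6c, Cox7a2 and Cox7b, whose log2 fold changes ran from 0.24 (Cox4i1) to 0.60 (Cox5a). Cox5a and Cox4i1 belong to the early nuclear-encoded part of the assembly around the mitochondrially encoded core. Cox6c had the smallest p of the complex, with 97.9 to 164 CPM (median 109.6) at 22°C and 72.0 to 114 CPM (median 86.8) at 29°C. All mice at 22°C were above the 29°C median, and 3 of 7 were above every 29°C mouse. The difference was 0.37 ± 0.13 (SE; P-adj = 0.181), and 0.24 without 22°C replicates 1 and 7. Cox5a ran from 83.7 to 183 CPM (median 92.5) at 22°C and from 52.2 to 101 CPM (median 72.4) at 29°C. Its 2 highest mice were 22°C replicates 1 and 7, far above the rest of that group, and the difference of 0.60 ± 0.22 (SE; P-adj = 0.187) was 0.25 without them. Of the 4 genes with larger p, Cox7c and Cox6b1 had differences of 0.24 ± 0.15 (SE; P-adj = 0.411) and 0.13 ± 0.13 (SE; P-adj = 0.639).

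Cox8a and Cox6a1 stood apart from the rest of complex IV. Per length, Cox8a was the most abundant transcript of the complex, at 630 CPM per kb at 22°C and 609 CPM per kb at 29°C, and it ran from 256 to 423 CPM (median 358) at 22°C and from 299 to 391 CPM (median 330.5) at 29°C. The range at 22°C enclosed the range at 29°C. The log2 difference, 0.05 ± 0.12 (SE; P-adj = 0.856), was the lowest of the 39 genes. Cox6a1 ran from 197 to 311 CPM (median 268) at 22°C and from 214 to 320 CPM (median 230.0) at 29°C, and its difference was 0.10 ± 0.12 (SE; P-adj = 0.701) on the log2 scale. In both genes 22°C replicate 7 was the lowest of all 13 mice, whereas it was among the highest for most other subunits. Without 22°C replicates 1 and 7 the log2 fold change was larger in both, at 0.15 for Cox8a and 0.17 for Cox6a1. The median of complex IV was 0.20 without those mice, with all 10 genes above 0, and no alternative moved it by more than 1.5 times.

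**Figure D2:**
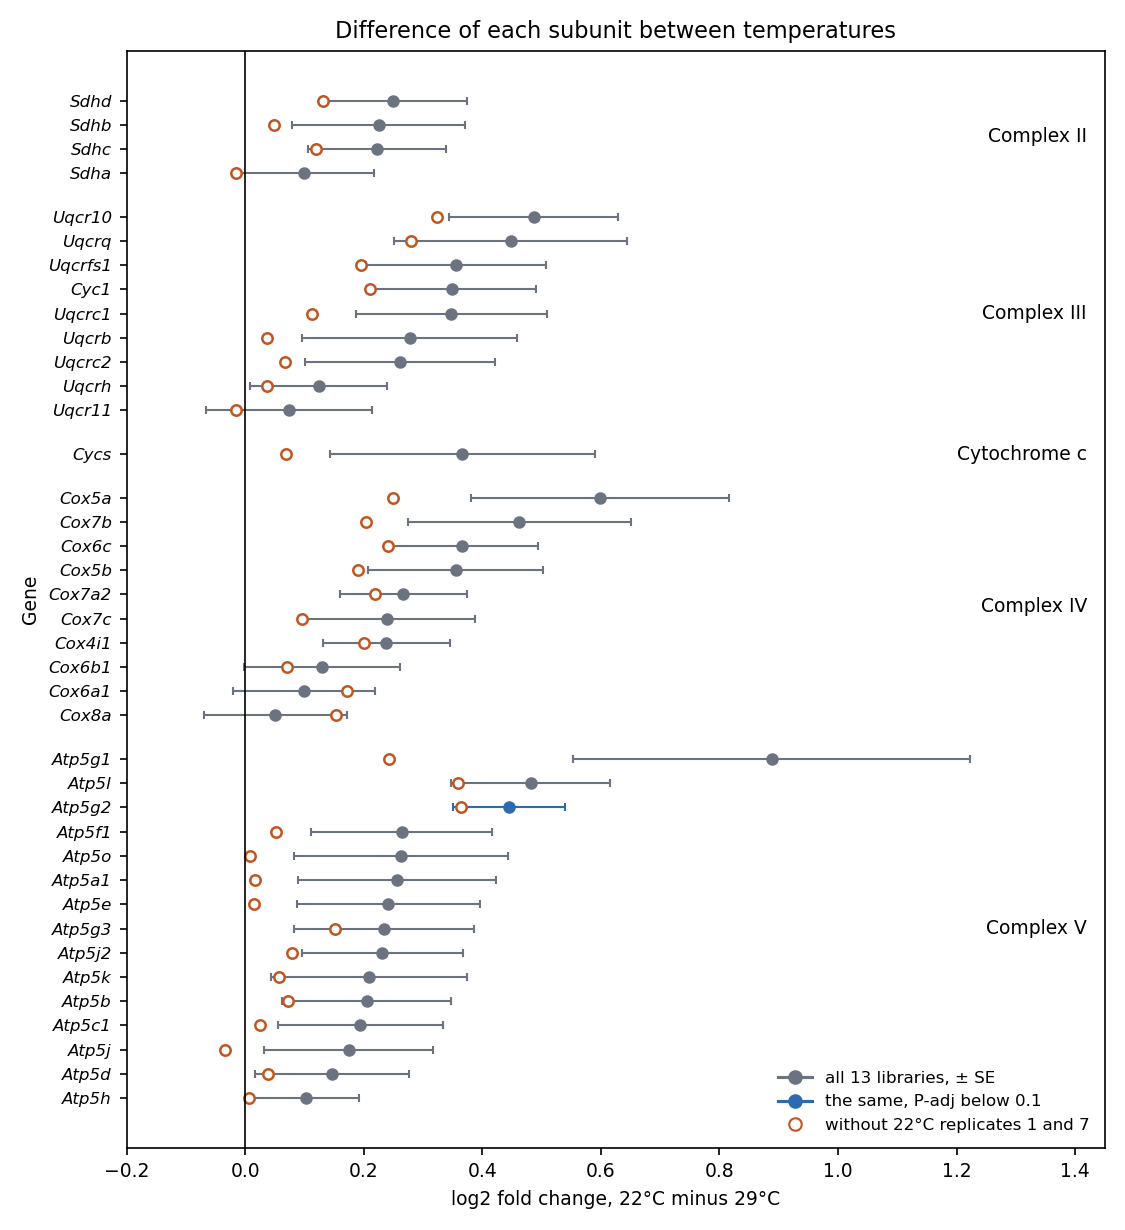
Log2 fold change of each of the 39 genes (horizontal axis, 22°C minus 29°C) by complex, as filled points with ± SE over all 13 libraries and as open points without 22°C replicates 1 and 7. The filled points are all to the right of 0 and the 1 called gene, Atp5g2, is blue. The open points lie to the left of the filled ones except for Cox6a1 and Cox8a.

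In complex V the median log2 fold change was 0.23 over 15 genes, of which 3 had an unadjusted p below 0.05 and 1 was called. The 5 genes of the F1 head and its central stalk had a median of 0.21. Atp5b, the catalytic beta subunit, was the most abundant of the 39 transcripts per length, at 788 CPM per kb at 22°C and 683 CPM per kb at 29°C. It ran from 1160 to 1903 CPM (median 1413) at 22°C and from 1042 to 1715 CPM (median 1292) at 29°C. The groups overlapped over most of their range, and the log2 fold change was 0.21 ± 0.14 (SE; P-adj = 0.468), and 0.07 without 22°C replicates 1 and 7. Atp5a1, the alpha subunit, ran from 692 to 1285 CPM (median 773) at 22°C and from 622 to 954 CPM (median 746) at 29°C. Its highest values were again those of 22°C replicates 1 and 7, and the difference of 0.26 ± 0.17 (SE; P-adj = 0.435) was 0.02 without them. The gamma, delta and epsilon subunits of the central stalk (Atp5c1, Atp5d and Atp5e) had differences of 0.19 ± 0.14 (SE; P-adj = 0.483), 0.15 ± 0.13 (SE; P-adj = 0.584) and 0.24 ± 0.15 (SE; P-adj = 0.425). Atp5e had the largest positive coefficient for the muscle score after Atp5g1 (0.07 ± 0.02 SE, P-adj = 0.125), and with that score as a covariate its difference between temperatures was 0.01.

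The peripheral stalk keeps the head from turning with the ring. Its 4 genes (Atp5f1, Atp5h, Atp5j and Atp5o) had a median log2 fold change of 0.22. Atp5h, subunit d of the stalk, had the lowest log2 fold change of complex V, with 96.5 to 136 CPM (median 108) at 22°C and 89.4 to 120 CPM (median 100.3) at 29°C. Most of both ranges was shared, and the difference was 0.10 ± 0.09 (SE; P-adj = 0.587), or 0.01 without 22°C replicates 1 and 7. Without 22°C replicates 1 and 7 the 4 genes had a median of 0.01, with Atp5j at -0.03. The count table has a second row named Atp5o that overlaps the one used here and held from 69.5% to 77.3% as many counts, so the level of Atp5o is uncertain. Exons of 12 of the 39 genes overlap those of another gene in the annotation at hand, among them Atp5j with Gabpa on the opposite strand, Uqcrc2 with Pdzd9 and Cox4i1 with Emc8. Whether the counts separated the strands is not given in the sources used here, so reads of such pairs cannot be told apart.

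Of the membrane accessory subunits Atp5j2, Atp5k and Atp5l, which join the membrane part of the synthase and its dimers, Atp5l had the largest difference. Atp5l, subunit g, ran from 88.5 to 152 CPM (median 102) at 22°C and from 60.1 to 94.0 CPM (median 71.3) at 29°C. Of the 7 mice at 22°C, 5 were above every 29°C mouse. The log2 fold change was 0.48 ± 0.13 (SE; P-adj = 0.118), and 0.36 without 22°C replicates 1 and 7. Atp5j2 and Atp5k had 0.23 and 0.21.

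The ring of c subunits turns as protons pass, and in mice 3 nuclear genes, Atp5g1, Atp5g2 and Atp5g3, encode the same mature subunit behind different mitochondrial targeting peptides. The promoters of these genes are shown because they are the 3 sources of 1 protein and had the widest range of differences of any position in complex V. Below are the 150 bases before the transcription start of each, from RefSeq (GRCm38.p6, minus strand in all 3), with any match to the 4 motifs searched in capitals. The match is CGCATGCG, a core of the NRF1 site, in Atp5g2 (chr15:102671048-102671197) and the reverse complement of CAAGGTCA, a core of the ERR site, in Atp5g3 (chr2:73911327-73911476), and Atp5g1 (chr11:96075632-96075781) has no match.
Atp5g1: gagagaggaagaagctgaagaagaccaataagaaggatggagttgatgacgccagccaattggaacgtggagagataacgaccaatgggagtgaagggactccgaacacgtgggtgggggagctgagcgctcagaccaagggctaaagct
Atp5g2: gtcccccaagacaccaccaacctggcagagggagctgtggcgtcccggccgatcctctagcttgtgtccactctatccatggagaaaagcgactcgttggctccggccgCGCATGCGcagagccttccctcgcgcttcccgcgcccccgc
Atp5g3: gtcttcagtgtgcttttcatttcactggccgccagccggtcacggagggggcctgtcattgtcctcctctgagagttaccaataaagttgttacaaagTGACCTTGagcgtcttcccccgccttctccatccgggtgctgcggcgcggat

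Of the 3 c subunit genes, Atp5g2 was called, and it was the only one of the 39 to pass the test in edgeR. It ran from 67.8 to 90.0 CPM (median 71.6) at 22°C and from 48.2 to 69.5 CPM (median 52.5) at 29°C. Of the 7 mice at 22°C, 6 were above every 29°C mouse, and 29°C replicate 6 alone reached into the 22°C range. The log2 fold change was 0.44 ± 0.09 (SE; P-adj = 0.0693), and 0.43 with the muscle score as a covariate (P-adj = 0.197) or 0.36 without 22°C replicates 1 and 7 (P-adj = 0.109). Leaving out 1 mouse at a time, the log2 fold change was between 0.40 and 0.52 and the P-adj between 0.0279 (without 29°C replicate 6) and 0.169 (without 29°C replicate 3), and the call was lost without 22°C replicate 1 or any 1 of 29°C replicates 1 to 5.

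Atp5g1 had the largest log2 fold change of the 39 genes, and most of it lay in a pair of mice. It ran from 40.4 to 181 CPM (median 57.3) at 22°C and from 34.1 to 53.3 CPM (median 45.0) at 29°C. The values of 22°C replicates 1 and 7 were 132 and 181 CPM, and the other 22°C mice lay between 40.4 and 67.2 CPM. The log2 fold change was 0.89 ± 0.33 (SE; P-adj = 0.197), and 0.24 without those 2 mice. Atp5g3 ran from 189 to 311 CPM (median 247) at 22°C and from 145 to 290 CPM (median 195) at 29°C. All but 1 of the 22°C mice fell within the 29°C range, and the difference was 0.23 ± 0.15 (SE; P-adj = 0.435), or 0.15 without 22°C replicates 1 and 7.

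Per length, Atp5g3 made up most of the c subunit transcripts in both groups, with 59.8% ± 8.0 (SD, n = 7) in mice kept at 22°C and 65.7% ± 4.02 (SD, n = 6) in those kept at 29°C. Atp5g1 made up 22.2% ± 9.48 and 17.0% ± 2.44, and Atp5g2 18.0% ± 2.16 and 17.3% ± 2.01. The share of Atp5g1 was up to 40.0% at 22°C and up to 21.03% at 29°C. The log2 ratios between the genes were tested by exact permutation (two-sided, 1716 splits of the 13 mice), with adjustment over the 3 ratios. By the exact permutation test, the ratio of Atp5g2 to Atp5g3 was 0.20 higher at 22°C (p = 0.114, adjusted p = 0.330), that of Atp5g1 to Atp5g3 0.44 higher (p = 0.220, adjusted p = 0.330) and that of Atp5g1 to Atp5g2 0.24 higher (p = 0.479, adjusted p = 0.479). None passed 0.05, and the last was -0.14 without 22°C replicates 1 and 7. The transcripts share no exact run longer than 21 bases (Atp5g1 with Atp5g2), 11 bases (Atp5g1 with Atp5g3) and 9 bases (Atp5g2 with Atp5g3).

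**Figure D3:**
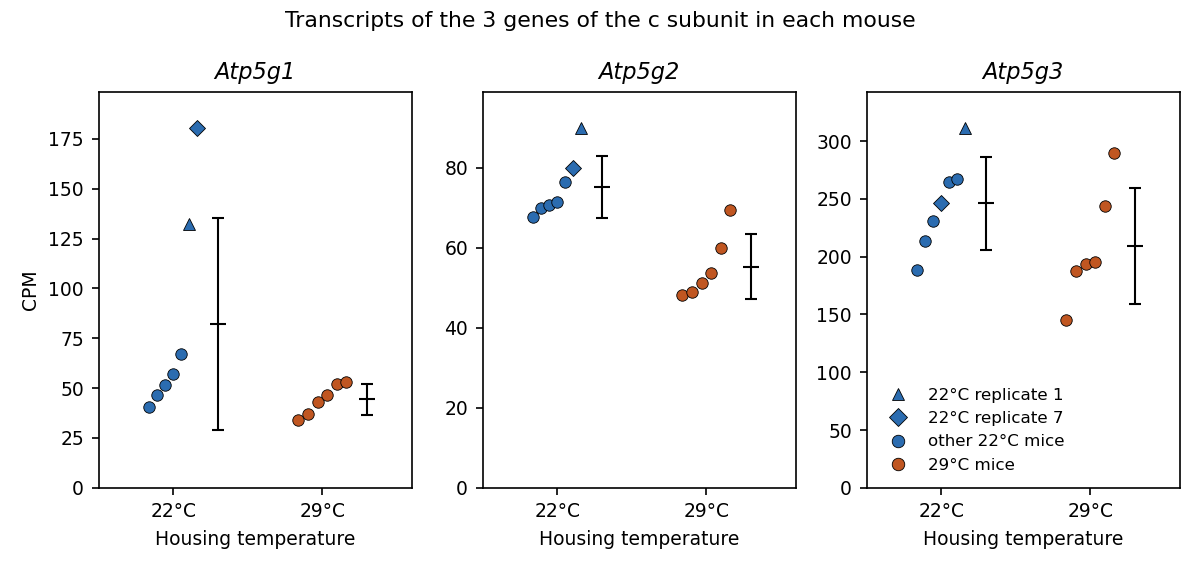
CPM (vertical axes, from 0) of Atp5g1, Atp5g2 and Atp5g3 in each mouse at 22°C (blue) and 29°C (orange), with the mean ± SD of the group as a black bar. In Atp5g1 the triangle and the diamond, 22°C replicates 1 and 7, lie at 132 and 181 CPM far above the other mice, while in Atp5g2 6 of 7 mice at 22°C lie above every 29°C mouse.

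Set against each other within a mouse, complexes IV and V lay at nearly the same distance in all 29°C mice but not in the 22°C mice. The mean log2 CPM of complex IV minus that of complex V ran from -0.25 to 0.18 at 22°C (mean 0.02 ± 0.16 SD, n = 7) and at 29°C (mean 0.02 ± 0.02 SD, n = 6) from -0.01 to 0.04. At 22°C the lowest values were -0.25 in replicate 7 and -0.09 in replicate 1, and the highest were 0.18 in replicate 5 and 0.17 in replicate 6. Of the 7 mice at 22°C, 4 were above and 2 below the whole 29°C range, so the equal means came from mice on both sides of it. The muscle score was 9.89 in 22°C replicate 7 and 10.38 in replicate 1, beside 3.67 in replicate 5 and 4.55 in replicate 6. At 29°C it ran from -0.29 to 6.83. The part of muscle transcripts in the distance between these complexes was not tested. Complex III minus complex V was -0.20 ± 0.06 at 22°C and -0.23 ± 0.05 at 29°C, and complex III minus complex IV was -0.23 ± 0.11 and -0.25 ± 0.03. The distance from complex II to complex III was 0.11 smaller at 22°C (0.54 ± 0.08 against 0.65 ± 0.12), to complex IV 0.08 smaller and to complex V 0.08 smaller. All 6 pairs had overlapping groups and were not tested.

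**Figure D4:**
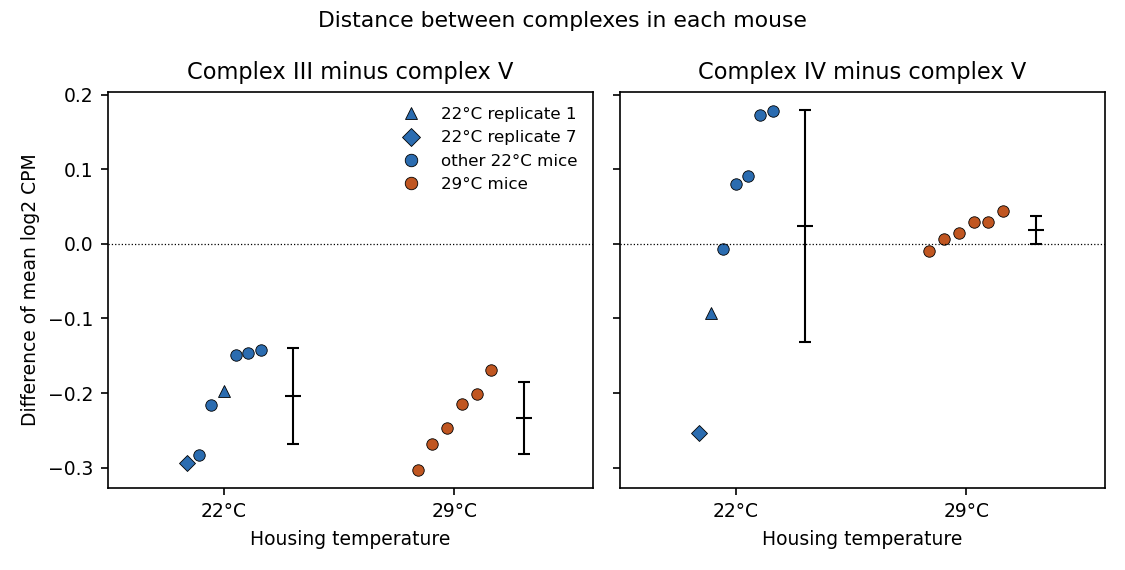
Difference of mean log2 CPM between complexes III and V (left) and IV and V (right) in each mouse at 22°C (blue) and 29°C (orange), with the mean ± SD of the group as a black bar and a dotted line at 0. On the right, the 29°C mice lie between -0.01 and 0.04, while the 22°C mice spread from -0.25 in replicate 7 to 0.18.

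The complexes also differed in how far their differences depended on the mice rich in muscle transcripts. With the muscle score as a covariate the median log2 fold change was 0.19 in complex II, 0.23 in complex III, 0.27 in complex IV and 0.15 in complex V, with all 39 genes above 0 and none called. Without 22°C replicates 1 and 7 it was 0.08, 0.11, 0.20 and 0.05 in the same order. Complex IV thus had the highest median in both of these alternatives, while complex III had it over all mice. The rank varied in other alternatives. Complex III also had the highest median with DESeq2 (0.35) and with the cluster of library totals (higher or lower) as a covariate (0.40). With that covariate, the 22°C side of the difference rests on replicates 6 and 7 only. Replicate 7 is 1 of the mice rich in muscle transcripts, so this rank is not free of them. Complex IV had the highest median without 22°C replicate 7 alone (0.27) and with the replicate number as a block (0.27). The difference between complexes was not tested.

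How the subunits followed the muscle score within the groups also varied in sign, and differences between subunits were not tested. The coefficient of the score (log2 change of the transcript per unit of score) was positive for 27 of the 39 genes and passed P-adj below 0.1 in edgeR for 2 (5.13%), beside 5.92% of tested genes, a share near the background. These were Atp5g1, at 0.16 ± 0.05 (SE; P-adj = 0.0962), and Cox6a1, at -0.06 ± 0.02 (SE; P-adj = 0.0989). Cox8a had the same size and sign as Cox6a1 (-0.06 ± 0.02 SE) and did not pass (P-adj = 0.111). Muscle uses its own isoforms of these subunits, Cox6a2 in place of Cox6a1 and Cox8b in place of Cox8a. Cox6a2 was at 465 and 534 CPM in 22°C replicates 1 and 7, and between 5.43 and 130 CPM in the other 22°C mice. In those libraries Cox6a1 was at 250.5 and 197 CPM. The part of muscle RNA in the values of the 39 genes was not tested beyond these fits.

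**Figure D5:**
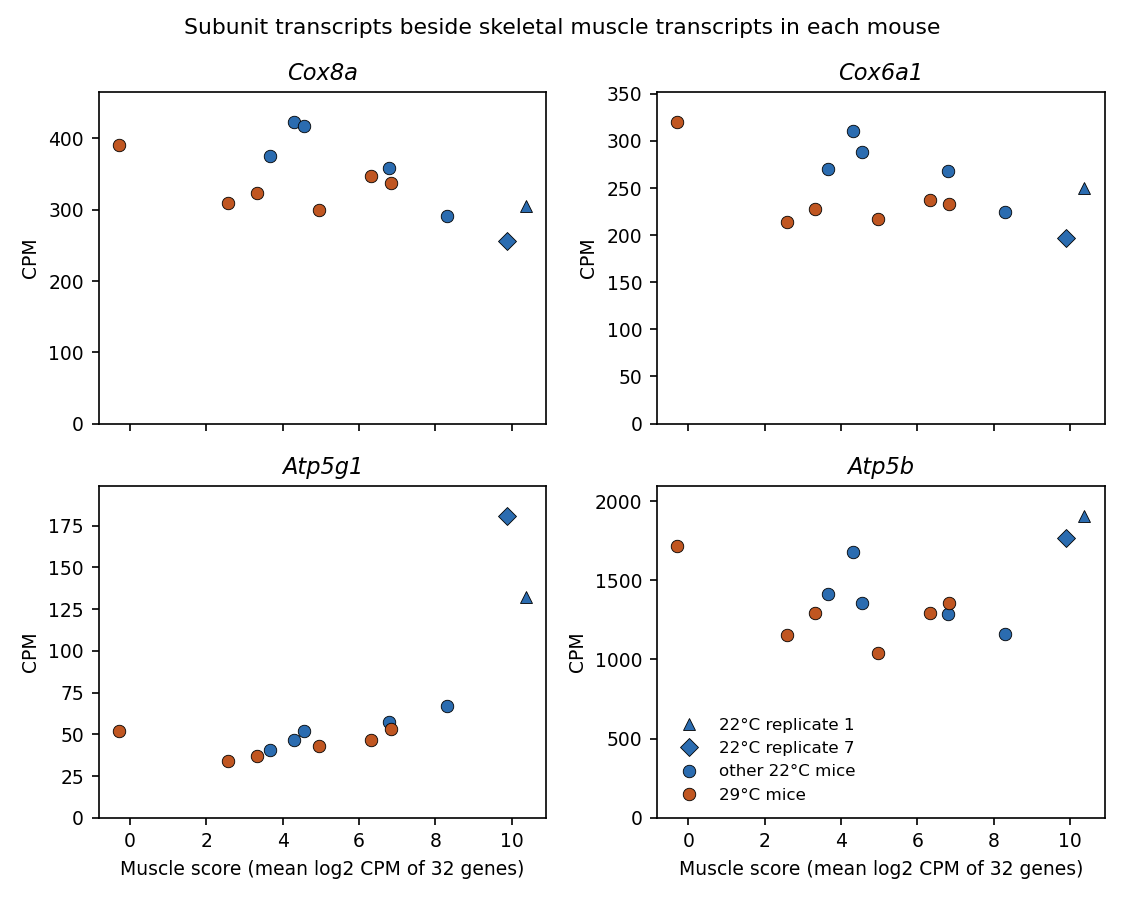
CPM of Cox8a, Cox6a1, Atp5g1 and Atp5b (vertical axes, from 0) against the muscle score, the mean log2 CPM of 32 skeletal muscle markers (horizontal axes), in each mouse at 22°C (blue) and 29°C (orange). At the right end, 22°C replicates 1 (triangle) and 7 (diamond) are high for Atp5g1 and Atp5b, and replicate 7 is the lowest mouse for Cox8a and Cox6a1.

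Of the 8 tissue-restricted isoforms listed, 5 were abundant enough to test and 1 was called. Cox8b, the isoform of muscle and brown fat, ran from 21.2 to 111 CPM (median 28.7) at 22°C and from 4.79 to 19.7 CPM (median 8.31) at 29°C. The groups did not overlap, and the lowest 22°C mouse (replicate 2) was just above the highest 29°C mouse (replicate 1). The difference on the log2 scale was 2.27 ± 0.53 (SE; P-adj = 0.0827). With the muscle score as a covariate it was 1.29 (P-adj = 0.145), and leaving out 1 mouse at a time gave a P-adj between 0.0662 and 0.179. The call was lost without 22°C replicate 1, 4 or 7 or any 1 of the 29°C mice. Of 13 tested markers of brown and beige fat, 2 were called higher, Cidea (2.51 ± 0.40 SE, P-adj = 0.0199) and Otop1 (2.92 ± 0.59 SE, P-adj = 0.0596), beside 0.731% of all tested genes. With the muscle score as a covariate Cidea had 2.51 (P-adj = 0.0589) and Otop1 3.31 (P-adj = 0.0920). Leaving out 1 mouse at a time, the highest P-adj was 0.0666 for Cidea and 0.147 for Otop1. Of the 13 markers, 8 had an unadjusted p below 0.05 in edgeR, and of these Tnfrsf9 was lower at 22°C. In the same list, 10 markers had log2 fold changes above 0 and 3 below, which were Prdm16 (-0.04), Elovl3 (-0.03) and Tnfrsf9 (-0.71). Ucp1 had at most 7 counts in a library and was not tested. The 15 listed markers summed to between 108 and 309 CPM at 22°C and between 93.2 and 138 CPM at 29°C. Their part in the subunit differences was not tested.

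The lists of partners had median log2 fold changes from 0.06 (assembly factors of complex V) to 0.34 (subunits encoded by mitochondrial DNA), beside 0.25 for the 39 genes. None of the lists in this and the next paragraph held a called gene. The 6 subunits of complexes III to V encoded by mitochondrial DNA all had log2 fold changes above 0 (median 0.34). The smallest p was that of mt-Cytb, the cytochrome b of complex III, at 0.36 ± 0.19 (SE; P-adj = 0.331), with 9794 to 21157 CPM at 22°C and 9323 to 14769 CPM at 29°C. In this table mt-Co1 and mt-Cytb reached 852268 and 401427 counts in a library, while mt-Co2, mt-Co3, mt-Atp6 and mt-Atp8 never exceeded 541 counts in a library, so the levels of these 4 are uncertain. Of 36 complex I subunits, 34 were above 0 with a median of 0.24, close to that of complexes II to V, and the smallest p was that of Ndufa6, at 0.37 ± 0.12 (SE; P-adj = 0.154). The other ubiquitous subunits (Ndufa4, which sits in complex IV, and 3 of complex V) were all above 0, with a median of 0.27. With the muscle score as a covariate the median was 0.25 for the subunits encoded by mitochondrial DNA and 0.18 for complex I. It was 0.11 for the other ubiquitous subunits, beside 0.21 for the 39 genes.

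The assembly factors of each complex had a lower median log2 fold change than its subunits, a difference that was not tested. The medians were 0.14 for 4 factors of complex II, 0.07 for 6 of complex III, 0.08 for 20 of complex IV and 0.06 for 4 of complex V. With the muscle score as a covariate these medians were 0.07, -0.004, 0.01 and 0.03 in the same order. Sdhaf1, which helps to insert iron-sulfur clusters into Sdhb, had 0.25 ± 0.09 (SE; P-adj = 0.177), Ttc19 of complex III 0.17 ± 0.08 (P-adj = 0.273), Cox19 of complex IV 0.18 ± 0.08 (P-adj = 0.244) and Atpaf1, a chaperone of the F1 head, 0.25 ± 0.13 (P-adj = 0.313). Of the 34 factors, 28 were above 0, and single factors reached the level of the subunits. Uqcc2 of complex III had 0.39 (P-adj = 0.361 in edgeR) and Cox11 of complex IV 0.37 (P-adj = 0.260), both chosen after their values were seen. Uqcc2 had 0.04 and Cox11 0.17 with the muscle score as a covariate.

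RefSeq promoters (250 bases before to 50 bases after the start, GRCm38.p6) were found for 31 of the 39 genes. They were searched on both strands for 4 motifs of factors known for respiratory chain genes, and no 2 matches overlapped. The NRF1 core CGCATGCG was in 8 of 31 (25.8%), beside 3.89% of 11880 tested genes with a promoter. The genes were Uqcrc1 and Uqcr11 of complex III, Cycs, Cox6a1 of complex IV and Atp5g2, Atp5j, Atp5k and Atp5l of complex V. The ERR core CAAGGTCA was in 3 (9.68%, beside 1.38%; Sdhd, Atp5g3 and Atp5l), the GABPA core CCGGAAGT in 4 (12.9%, beside 8.15%) and the YY1 core AAGATGGC in 3 (9.68%, beside 4.80%). Cycs, a classical NRF1 target, is printed as an example (chr6:50566570-50566719, minus strand, the 150 bases before the start, with the match in capitals).
Cycs: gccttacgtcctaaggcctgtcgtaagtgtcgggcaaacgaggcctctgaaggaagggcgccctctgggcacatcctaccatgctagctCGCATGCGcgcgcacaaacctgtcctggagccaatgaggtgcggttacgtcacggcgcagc

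Genes with the NRF1 core were spread over the range of differences. They included Atp5g2 and Atp5l (log2 fold change 0.44 and 0.48) and also Uqcr11 and Cox6a1 (0.07 and 0.10). Atp5g1 and Cox5a, with the largest differences of the list, had no match to any of the 4 motifs in their windows. A match is a description of these letters and says nothing of binding in this tissue.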

How the data were processed

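RNA of gluteal WAT from 13 mice was sequenced, with 1 library per mouse, and mice were grouped by the temperature and replicate number in the labels. The authors aligned the reads with STAR 2.7.5a, made gene counts with featureCounts, and the raw counts they deposited cover 34419 genes. They also deposited regularized log2 values from DESeq2, used here only in an alternative. The submitters' processing notes name GRCm39. The annotation and strand setting are not given in the sources used here. Gene names were matched by identifier without version (34006 matched), so no coordinates of counted genes are given.

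Counts were compared in edgeR 4.0.16 (R 4.3.3) with TMM normalization, filterByExpr, no covariate and the quasi-likelihood F test, over all 17779 genes tested, with Benjamini-Hochberg adjustment and P-adj below 0.1. The SE was derived from the log2 fold change and F. TMM-scaled totals underlie CPM, and a prior count of 2 was added for log2 CPM. CPM per kb use the length of 1 principal protein-coding transcript per gene (GENCODE M21), not the authors' annotation. Ratios were tested in SciPy 1.17.1. Every pair of libraries differed beyond sampling noise (chi-square per gene of at least 16.9 in 78 pairs). The p-values measure the spread between mice, taken to be separate animals as the labels give them.

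The 39 genes and the other lists were chosen with earlier results of these data known. All 39 passed the filter on low counts. Values per group are given for called genes, for Sdhb, Uqcrc2 and Atp5a1 (whose proteins the study blotted), for the gene with the smallest p, the highest level and the lowest log2 fold change in each complex, for Cycs and for the c ring genes. Of the other lists, called genes and the gene with the smallest p are named. Cox5a, Cox6a1, Atp5l, Cox6a2 and the low mitochondrial transcripts are not covered by this rule and were picked with their values in view. Alternatives were omitting the filter, a minimum mean of 10 counts, DESeq2 size factors, upper quartile normalization, robust quasi-likelihood, DESeq2 1.42.0, limma 3.58.1 on the deposited log2 values, a replicate block, leaving out each mouse, the 8 libraries with the higher totals, covariates for the cluster of library totals (higher or lower) and for the muscle score, and pseudogenes summed. The methods were tested on simulated counts.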

Additional observations from a re-analysis of the deposited data

Results flagged for a closer look

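In 4 genes a single mouse stood far from the other mice of its group. Cox6c was at 164 CPM in 22°C replicate 1, beside 117 CPM in the next 22°C mouse, and Atp5l was at 152 CPM in the same mouse, beside 104 CPM. Cox6a1 was at 320.0 CPM in 29°C replicate 6, beside 237 CPM in the next 29°C mouse, and Atp5d was at 317 CPM in the same mouse, beside 221 CPM. In all, 92 groups (46 measures at 2 temperatures) were examined, and chance alone would give such a gap in about 1 in 20 groups. The 4 gaps found are no more than that share of the 92 groups. 22°C replicate 1 has the highest muscle score of the 13 libraries (10.38) and 29°C replicate 6 the lowest (-0.29), and what part this has in these values was not tested.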

How the results depend on the processing

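The median log2 fold changes of the 39 genes and of each complex stayed above 0 in all 28 alternatives, with ranges over mice left out of 0.15 to 0.33 (all 39), 0.15 to 0.29 (complex II), 0.25 to 0.43 (III), 0.20 to 0.33 (IV) and 0.15 to 0.30 (V). The median of the 39 genes was larger with the higher totals only (0.335) than in the main fit (0.250). It was also larger with the cluster of library totals (higher or lower) as a covariate (0.343). In both of these fits the temperature difference rests on 22°C replicates 6 and 7 beside the 6 mice at 29°C, so they are not separate checks. The number of the 39 genes called (1, Atp5g2) was 6 with DESeq2, 2 with the replicate block (Cox6c and Atp5l, while Atp5g2 had P-adj = 0.111 in edgeR), 0 without a filter, with the higher totals only, with either covariate, without the 2 libraries richest in muscle transcripts or at P-adj below 0.05, and 0 to 2 over mice left out. Genes called in all (345, of which 130 higher) were 1676 with DESeq2 (914 higher), 42 without a filter, 8 with the higher totals only, 4 with the cluster of library totals and 41 with the muscle score as a covariate, 40 at P-adj below 0.05, and 32 (without 29°C replicate 3) to 652 (without 22°C replicate 6) over mice left out. The tissue-restricted isoforms called (1) were 3 with DESeq2, 0 without a filter, with the higher totals, with either covariate, without the 2 muscle-rich libraries and in the 12 libraries of numbers 1 to 6, and 0 to 1 over mice left out. DESeq2 called 1 assembly factor of complex II and 4 subunits of complex I, and the block 2 subunits of complex I. Directions turned, with no call, for Sdha (-0.015), Uqcr11 (-0.015), Atp5j (-0.034) and the ratio of Atp5g1 to Atp5g2 (-0.14) without the muscle-rich libraries, for Cox6a1 (-0.0022) and Cox8a (-0.0030) with the higher totals only, and for Cox8a over mice left out, where it was between -0.0031 (without 22°C replicate 3) and 0.11. The causes were not tested.

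The labels do not say what a replicate number shares, and the pairing was not established by the criterion used here, a correlation over 0.1 for every number. Same-numbered mice correlated at 0.51, 0.41, 0.35, 0.49, 0.05 and 0.39 in their deviations from the group means, and for 4 of 6 numbers the mouse at 22°C correlated best with its own number, a hint of shared numbers from the data alone. The block over numbers 1 to 6 called 263 genes, and the same 12 libraries without it 184. The numbers of mice and the confounding of library total with temperature limit what these data can show about differences of this size.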
